A study of Mus musculus with 8 samples.

Results

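The genes described here were 8 members of the neurexin, neuroligin and latrophilin families (Nrxn2, Nrxn3, Nlgn1, Nlgn2, Nlgn3, Adgrl1, Adgrl2 and Adgrl3), of 17362 genes in a table of islet cell types. They were chosen by name as synaptic adhesion genes, and chosen with their measured values in these data already known, by cell type and by difference after treatment and with genotype. Their values are therefore given as a description, with no test. Neurexins are presynaptic membrane proteins that bind neuroligins on the facing cell, and the pair aligns the release and receiving sides of a synapse. Latrophilins are adhesion G protein-coupled receptors that bind teneurins and FLRT proteins, and the founding member was isolated as a receptor for alpha-latrotoxin, a toxin that triggers exocytosis. Endocrine cells of the islet share much of the neuronal secretory machinery, and several of these adhesion proteins have been studied in beta cells for their part in granule docking and insulin secretion.

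Nuclei came from cultured islets of wild type (WT) mice and of whole-body knock-in mice (C57BL/6J) carrying Med14 S983A, a serine to alanine change in Med14, the scaffold subunit of Mediator. For either genotype there were untreated islets (CON), islets given forskolin (FSK, an activator of adenylate cyclase) and islets given Exendin-4 (Ex-4, which activates the receptor for the incretin GLP-1) at 10 nM for 16 h. The sources used here state neither the dose of FSK in islets nor the age and number of the animals. The question was how cAMP signals change gene expression in islet cells and how much of that response needs that serine. Islets of all 6 conditions were hand-picked and cultured overnight, and each condition came from a preparation of about 100 islets whose sorted nuclei went into separate barcoding wells before all conditions were pooled in 8 sublibraries. Because the S983A change is carried by every cell of the animal, effects within a cell type and effects from other tissues cannot be told apart.

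The table gives 1 pooled value for each of 6 conditions in each of 9 cell types, so there was no replicate, and condition, islet preparation and well cannot be told apart. Values were read as counts per 10000 counts of the column (CP10K), with exact Poisson intervals (95%) that cover counting error only. Column totals ran from 1915006 to 3094377 counts in beta cells, from 269394 to 810127 in alpha cells and from 362410 to 631433 in delta cells. In PP, endothelial, macrophage, muscle, neuron and ductal columns they ran from 1522 to 159305 counts. Of the markers of each type, 6 of 7 for beta cells, 5 of 6 for alpha cells, 4 of 4 for delta cells and 5 of 5 for endothelial cells had their highest median in their own columns. The columns called neurons went against their label, since Elavl4 and Snap25 were highest in PP cells, Rbfox3 and Syt1 were highest in delta cells, and Elavl3 had a median of 0. The ductal columns had medians of 0 for Sox9, Cftr and Spp1 and were led by Krt7. In the muscle columns Myh11 and Pdgfrb were highest, but Tagln and Ttn had medians of 0 there and Ryr2 was highest in the columns called neurons. Macrophage markers summed to 0 in the Ex-4 columns of every cell type, so they do not check the Ex-4 macrophage columns. All columns are called below by the names the authors gave them. Med14 itself was at 0.478 CP10K in untreated WT beta cells and 0.384 in untreated Med14 S983A beta cells (ratio 0.804, 0.599 to 1.07), and a point change does not remove the transcript, so its level does not check the genotype.

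The genes differ greatly in size, which matters below because nuclear RNA is mostly unspliced. On GRCm39 (GENCODE M39), Nrxn3 spans 1612 kb (chr12:88689646-90301709, plus strand), Nlgn1 906 kb (chr3:25480379-26386609, minus strand) and Adgrl3 806 kb (chr5:81167344-81972980, plus strand). Adgrl2 spans 177 kb (chr3:148518957-148696229, minus strand) and Nrxn2 125 kb (chr19:6468761-6594199, plus strand). The compact members are Adgrl1 at 42.0 kb (chr8:84626588-84668583, plus strand), Nlgn3 at 26.8 kb (chrX:100342750-100369570, plus strand) and Nlgn2 at 14.7 kb (chr11:69713948-69728613, minus strand). Of the 8 genes, only Nlgn2 overlaps no other annotated gene, and only Nrxn2 overlaps a protein-coding one (Slc22a12, opposite strand). The sources used here do not say whether reads were counted by strand, so reads of the overlapping genes cannot be told apart from those of the members.

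Promoter sequence is shown for Adgrl2, whose delta cell level was highest under FSK in both genotypes, and for Nlgn2 and Adgrl1, whose beta cell levels were lowest, because FSK acts through cAMP and the cAMP response element is a short known motif. RefSeq (GRCm38.p6) gave 11 starts for 6 of the 8 members, with Nrxn2 and Nlgn3 without an entry. The first 250 bases upstream of each start were searched on both strands for the full element TGACGTCA and for its core TGACG, which lies within the full element. The core was found at 1 of the 11 starts, that of Adgrl2, where its first base lies at position -153, and the full element at 0 of 11. Across all 32851 promoters of the table, 17.8% held the core and 1.55% the full element. The stretches below, matched exactly to GRCm39, end where the annotated gene begins (Nlgn2, chr11:69728614-69728860, minus strand, 247 bases, and Adgrl1, chr8:84626477-84626587, plus strand, 111 bases) or hold the core (Adgrl2, chr3:148660407-148660436, minus strand, 30 bases, inside the annotated gene, of which 17 bases, with most of the core, lie in an annotated exon). Capitals mark the core TGACG, which neither of the other stretches holds on either strand.
Adgrl2: gtgcatttgctgTGACGacatacaagggtc
Nlgn2: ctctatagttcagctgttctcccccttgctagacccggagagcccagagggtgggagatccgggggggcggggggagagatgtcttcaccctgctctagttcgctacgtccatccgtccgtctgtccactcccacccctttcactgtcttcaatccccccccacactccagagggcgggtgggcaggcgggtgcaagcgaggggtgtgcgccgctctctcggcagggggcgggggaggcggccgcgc
Adgrl1: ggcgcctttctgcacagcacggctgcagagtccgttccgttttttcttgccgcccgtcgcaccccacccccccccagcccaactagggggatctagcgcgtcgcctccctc

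The plot of levels by cell type shows that each gene had its own distribution over the islet. Summed over conditions, Nrxn3 and Nlgn1 were highest in PP cells, Nrxn2 in delta cells, Nlgn2 in alpha cells and Adgrl2 in endothelial cells. On the same sums Adgrl3 was highest in the columns called neurons and then in beta cells. Adgrl1 was nearly even over the 4 endocrine types when summed over conditions, but under FSK beta cells stood at 0.976 and 0.964 in WT and mutant against 2.41 and 2.10 in alpha cells. Values below are sums over the 6 conditions divided by the summed column totals, followed where useful by the range over conditions.

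**Figure D1:**
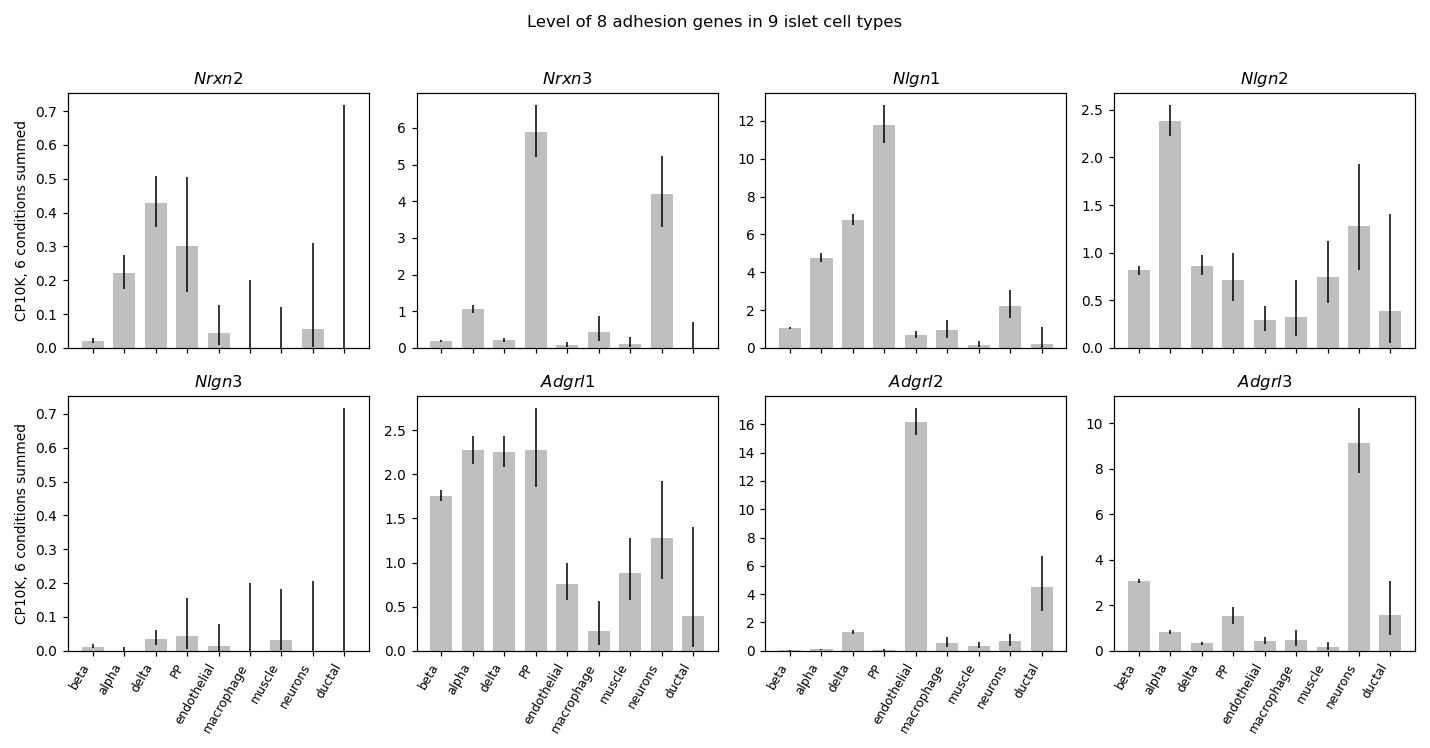
CP10K of each gene in 9 cell types (counts and column totals summed over 6 conditions); lines are exact Poisson 95% intervals and each panel has its own axis. Adgrl2 stands at 16.2 in endothelial cells and 1.34 in delta cells, and Nlgn1 at 11.8 in PP cells and 1.05 in beta cells.

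Of the neurexins, which organise the presynaptic side, Nrxn2 was sparse, with 256 counts in all columns. It stood at 0.427 CP10K in delta cells (0.356 to 0.508), 0.30 in PP cells (0.164 to 0.504) and 0.221 in alpha cells (0.175 to 0.276), and at 0.0217 in beta cells from 33 counts. The delta and PP intervals overlapped, and the beta interval lay below those of the other 3 endocrine types. Nrxn3 stood at 5.88 CP10K in PP cells (5.20 to 6.62), 4.19 in the columns called neurons (3.29 to 5.25), 1.07 in alpha cells (0.963 to 1.18), 0.219 in delta cells and 0.194 in beta cells. The first pair overlapped slightly, as did delta and beta cells, while alpha cells lay apart from both groups. This order holds for the pooled values only, since in WT CON alone PP cells (2.57, 1.47 to 4.18) and alpha cells (2.43, 1.98 to 2.95) overlapped and the columns called neurons, which ranged from 0 to 20.01 over conditions, were far higher. In PP cells Nrxn3 took the values 2.57, 3.80 and 8.54 in WT CON, WT FSK and WT Ex-4, and 4.38, 10.9 and 5.11 in Med14 S983A CON, FSK and Ex-4. Its highest PP values were thus under Ex-4 in WT and under FSK in the mutant. The WT Ex-4 column was 3.32 times WT CON (1.78 to 6.46), from 33 and 16 counts.

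Of the neuroligins, the postsynaptic partners, Nlgn1 is best known at excitatory synapses and Nlgn2 at inhibitory ones. Nlgn1 stood at 11.8 CP10K in PP cells (10.8 to 12.8), 6.77 in delta cells (6.48 to 7.07), 4.76 in alpha cells (4.53 to 4.99) and 1.05 in beta cells (0.994 to 1.10). None of these 4 pooled intervals touched. In WT CON alone PP cells (16.1, 13.1 to 19.6) and delta cells (13.8, 12.6 to 15.1) overlapped. Nlgn2 stood at 2.38 CP10K in alpha cells (2.22 to 2.55) and at 0.865, 0.814 and 0.708 in delta, beta and PP cells, 3 values whose intervals overlapped. Nlgn3 was almost absent, with 32 counts in all 54 columns, of which 18 were in beta cells and 10 in delta cells. Under Ex-4 in either genotype all 9 cell types had 0, and since a gene may be missing from a whole condition of the table, these zeros were not read as a limit. Alpha cells also had 0 in the CON and FSK columns of both genotypes. There a limit of 3 counts lies at 0.037 to 0.111 CP10K.

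Of the latrophilins, Adgrl1 stood at 2.27 CP10K in alpha cells, 2.25 in delta cells, 2.27 in PP cells and 1.76 in beta cells (1.69 to 1.83). The first 3 overlapped, and the beta interval ended just below that of PP cells (1.86 to 2.75). Adgrl2 stood at 16.2 CP10K in endothelial cells (15.2 to 17.1), 4.47 in ductal columns (2.83 to 6.71, 23 counts), 1.34 in delta cells (1.21 to 1.48), 0.0907 in alpha cells and 0.0190 in beta cells. Endothelial cells gave 68.6% of all Adgrl2 counts and delta cells 24.3%. Adgrl3 showed the opposite split, with 87.3% of its counts in beta cells, whose columns hold 64.5% of all counts. It stood there at 3.05 CP10K (2.97 to 3.14). PP cells stood at 1.52 (1.19 to 1.92), alpha cells at 0.819 and delta cells at 0.333. Beta cells were not above PP cells in every condition. In WT Ex-4 beta and PP cells stood at 1.79 and 1.81, and in Med14 S983A CON at 1.2 and 1.33, with overlapping intervals. Per column the highest Adgrl3 level was in the columns called neurons at 9.15 (7.80 to 10.7), but there it ranged from 2.70 to 106 CP10K over conditions, with 43 counts in the highest, WT FSK, and 3 in WT CON.

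Levels of different genes were compared per 100 kb of gene length. The median over the 18 beta, alpha and delta columns was 7.80 CP10K per 100 kb for Nlgn2 and 5.41 for Adgrl1. It was 0.367 for Nlgn1, 0.182 for Nrxn2, 0.102 for Adgrl3, 0.0499 for Adgrl2, 0.0161 for Nrxn3 and 0 for Nlgn3. The compact Nlgn2 and Adgrl1 thus stood highest on this scale, although by CP10K alone the long Nlgn1 led with a median of 3.33. The 0 of the compact Nlgn3 includes the Ex-4 columns, where the gene may be missing, so it was not ranked. In beta and delta cells the Nlgn3 medians were 0.0424 and 0.125 per 100 kb, beside 0.0107 and 0.0134 for Nrxn3. In alpha cells they were 0 and 0.0555. These Nlgn3 medians include the same Ex-4 columns and rest on 18 counts in beta, 10 in delta and 0 in alpha cells. They were therefore not ranked against Nrxn3.

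The plot of levels by condition gives every value in the 3 deepest cell types. Values of 6 conditions are listed as WT CON, WT FSK and WT Ex-4, then Med14 S983A CON, FSK and Ex-4. In beta cells Adgrl3 stood at 5.27, 4.80 and 1.79 CP10K in WT, against 1.2, 2.49 and 1.27 in the mutant. Nlgn1 in beta cells stood at 1.4, 1.16 and 0.681 in WT, against 0.805, 1.29 and 0.820 in the mutant. These 2 long genes were high in WT CON and WT FSK and low in mutant CON and under Ex-4 in both genotypes, with mutant FSK in between for Adgrl3 and overlapping WT CON and WT FSK for Nlgn1. The remaining long gene, Nrxn3, stood at 0.239, 0.249 and 0.161 in WT, against 0.166, 0.139 and 0.178 in the mutant, lowest in mutant FSK at 0.558 times WT FSK (0.358 to 0.853). The compact Nlgn2 and Adgrl1 had another order, and Nlgn3 had at most 7 counts in any beta column. Nlgn2 in beta cells stood at 0.823, 0.255 and 1.15 in WT, against 1.41, 0.352 and 1.13 in the mutant. Adgrl1 in beta cells stood at 1.68, 0.976 and 2.42 in WT, against 2.56, 0.964 and 2.28 in the mutant. For both, the FSK columns of the 2 genotypes were the lowest and their intervals overlapped none of the other 4.

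**Figure D2:**
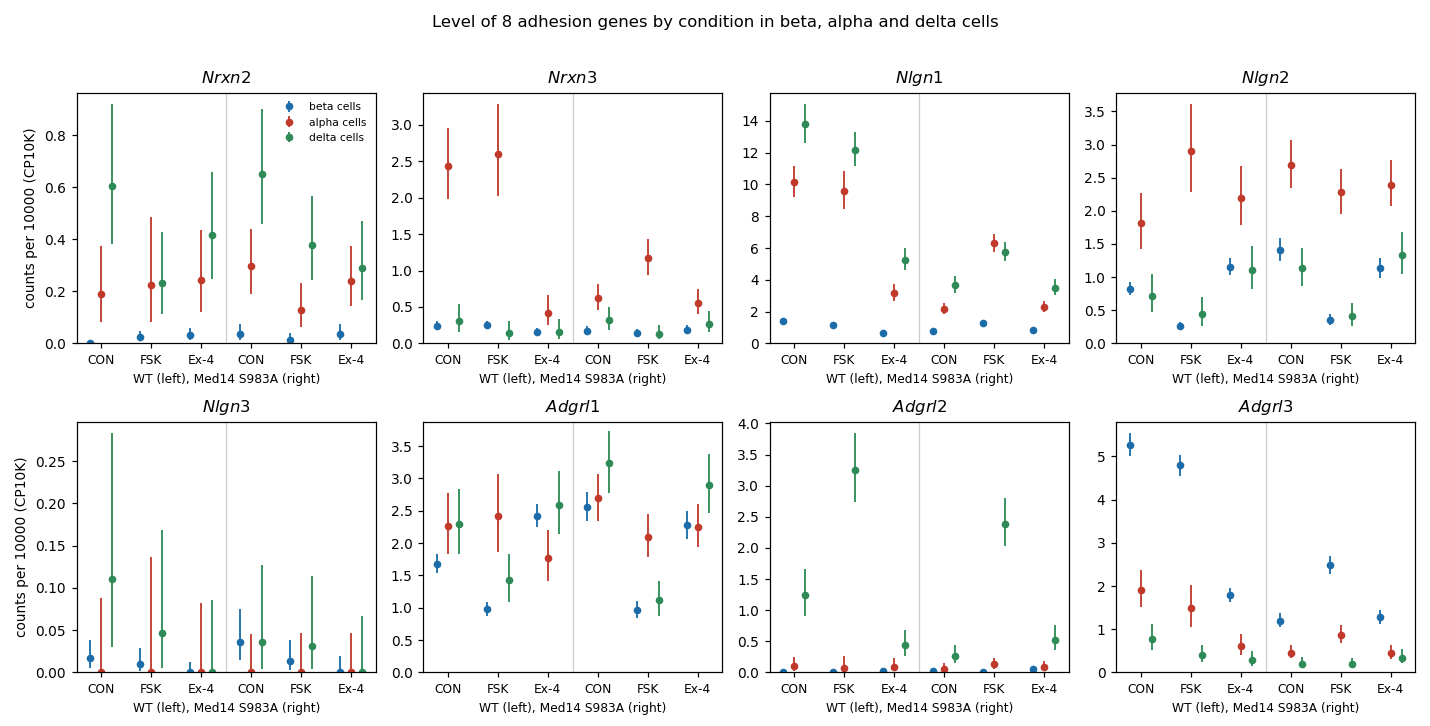
CP10K of each gene in beta, alpha and delta cells in 6 conditions, with exact Poisson 95% intervals (counting error only); each panel has its own axis from 0. Adgrl3 in beta cells stands at 5.27 in WT CON and 1.2 in Med14 S983A CON, and Adgrl2 in delta cells at 3.25 in WT FSK and 2.39 in Med14 S983A FSK.

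In alpha cells Nlgn1 stood at 10.1, 9.58 and 3.15 CP10K in WT, against 2.18, 6.31 and 2.29 in the mutant. Nrxn3 in alpha cells stood at 2.43, 2.60 and 0.421 in WT, against 0.617, 1.17 and 0.555 in the mutant. These genes had the same high and low conditions as Adgrl3 in beta cells. Nlgn2 stayed between 1.81 and 2.90 CP10K and Adgrl1 between 1.77 and 2.69 in all 6 alpha columns, without the low FSK values seen in beta cells. In delta cells Nlgn1 stood at 13.8, 12.2 and 5.26 in WT, against 3.67, 5.73 and 3.51 in the mutant. Adgrl2 in delta cells stood at 1.24, 3.25 and 0.440 in WT, against 0.265, 2.39 and 0.525 in the mutant, from 15 to 151 counts. Its 2 FSK columns were the highest, and WT CON lay between them and the other 3. Nlgn2 in delta cells stood at 0.717, 0.444 and 1.11 in WT, against 1.13, 0.412 and 1.34 in the mutant. Adgrl1 in delta cells stood at 2.29, 1.43 and 2.59 in WT, against 3.23, 1.12 and 2.90 in the mutant. As in beta cells, both were lowest in the 2 FSK columns, though their WT FSK and WT CON intervals overlapped.

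Differences between conditions were taken on the log2(CP10K + 1) scale, and a gene was called higher or lower past 1.5-fold (0.58 on this scale) among genes above a filter on low values. The filter kept 5 of the 8 members in beta cells (all but Nrxn2, Nlgn3 and Adgrl2) and 7 in alpha and in delta cells (all but Nlgn3). Ratios of CP10K are given with exact conditional 95% intervals. The scale pulls low genes towards 0, so a ratio past 1.5 can fall short of the call.

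The first comparison asked what 16 h of Ex-4 did in WT islets. Adgrl3 in beta cells was the only member called there, lower at 0.339 times WT CON (0.307 to 0.374), a difference of -1.17 on the log2 scale. That is 1 of 5 members lower and 0 higher, against 2.18% lower and 0.941% higher of all 10093 genes kept in beta cells. Nlgn1 in beta cells stood at 0.487 times WT CON (0.410 to 0.577), short of the call at -0.51, while Adgrl1 and Nlgn2 stood at 1.44 times (1.28 to 1.62) and 1.4 times (1.19 to 1.66), differences of 0.35 and 0.24. In alpha cells 3 of 7 members were called, all lower, where 5.72% of all kept genes were called in either direction. They were Nlgn1 at 0.310 times (0.255 to 0.376), Nrxn3 at 0.173 times (0.100 to 0.284) and Adgrl3 at 0.325 times (0.204 to 0.506). In delta cells 2 of 7 were called, Nlgn1 at 0.381 times (0.324 to 0.447) and Adgrl2 at 0.354 times (0.196 to 0.618), against 5.06% of all kept genes. With the trend on gene length removed, the calls of Adgrl3 in alpha cells (-0.84 to -0.40) and Adgrl2 in delta cells (-0.64 to -0.48) ended.

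**Figure D3:**
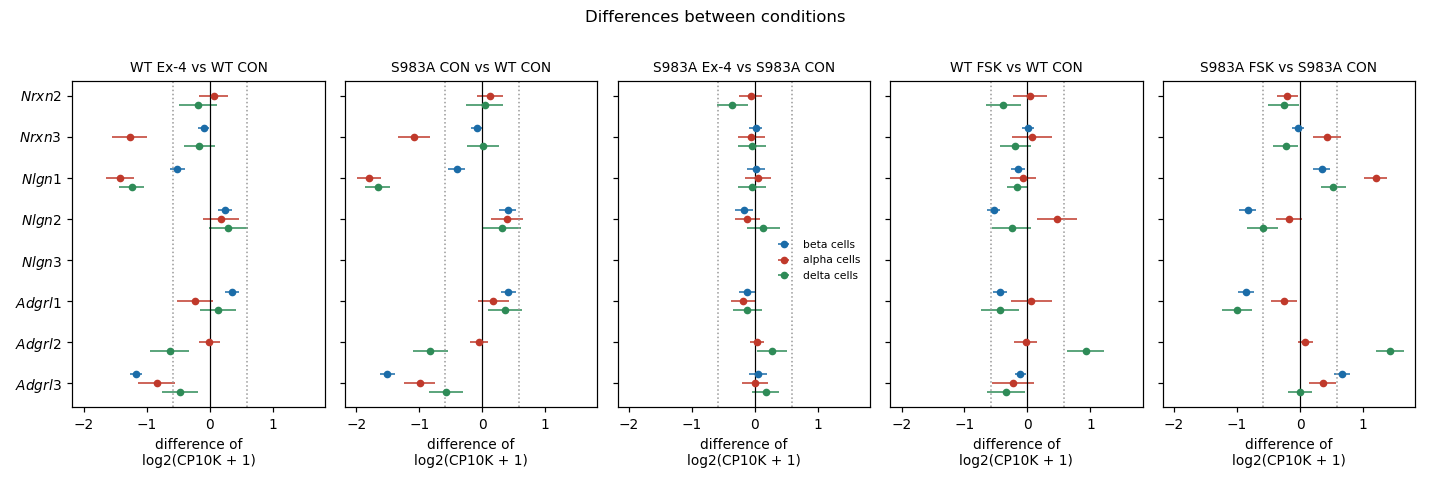
Difference of log2(CP10K + 1) in 5 comparisons for each gene kept by the filter in beta, alpha and delta cells; lines are approximate 95% intervals from counting error and dotted lines mark 1.5-fold (S983A is Med14 S983A). Nlgn1 lies at -1.43 in alpha cells under Ex-4 in WT and at 0.05 under Ex-4 in the mutant.

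The second comparison set untreated Med14 S983A islets against untreated WT islets. It uses the same WT CON columns as the first, so the 2 sets of values are not independent. Adgrl3 in beta cells stood at 0.228 times WT CON (0.197 to 0.261), a difference of -1.51, and was again the only member called lower of 5, with 0 called higher. Of all kept beta genes 3.86% were lower and 1.48% higher. In alpha cells Nlgn1 (0.216 times, 0.180 to 0.257), Nrxn3 (0.254 times, 0.177 to 0.359) and Adgrl3 (0.239 times, 0.158 to 0.358) were called lower, 3 of 7 against 7.38% of kept genes in either direction. In delta cells Nlgn1 (0.266 times, 0.225 to 0.314) and Adgrl2 (0.213 times, 0.110 to 0.390) were called lower, 2 of 7 against 7.05%. With the trend on gene length removed, the calls of Nrxn3 (-1.09 to -0.48) and Adgrl3 (-0.997 to -0.51) in alpha cells and of Adgrl2 in delta cells (-0.83 to -0.584, just short of the threshold) ended. Nlgn2 and Adgrl1 in beta cells lay the other way, at 1.71 times (1.43 to 2.04) and 1.52 times (1.34 to 1.73), and neither was called, at 0.40 and 0.41 on the log2 scale. In the shallower columns, Adgrl2 in endothelial cells went from 23.7 CP10K in WT to 11.7 in the mutant (0.493 times, 0.408 to 0.595), and Nlgn1 in PP cells from 16.1 to 6.50 (0.404 times, 0.298 to 0.546).

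The next comparison asked what Ex-4 did in Med14 S983A islets. No member was called in any of the 3 cell types. In beta cells 0.00991% of all kept genes were lower and 0.0396% higher, and 0.0422% of kept alpha genes and 0.0432% of kept delta genes were called in either direction, so few genes of any kind differed between these columns. Adgrl3 in beta cells stood at 1.06 times mutant CON (0.883 to 1.28), Nlgn1 in alpha cells at 1.05 times (0.849 to 1.30) and Nrxn3 in alpha cells at 0.898 times (0.585 to 1.38). The intervals of these 3 ratios leave out the ratios of the same genes under Ex-4 in WT. The intervals of 3 other ratios left out 1, those of Adgrl2 in delta cells at 1.98 times (1.03 to 3.98, from 29 and 15 counts), Nrxn2 in delta cells at 0.443 times (0.230 to 0.817) and Nlgn2 in beta cells at 0.805 times (0.670 to 0.966). For Adgrl2 this is the other direction from its difference under Ex-4 in WT. Untreated mutant levels were below those of WT Ex-4 for Adgrl3 in beta cells (1.2 against 1.79 CP10K) and for Nlgn1 in alpha (2.18 against 3.15) and delta cells (3.67 against 5.26), with intervals apart. Adgrl3 in alpha cells (0.457 against 0.620) and Adgrl2 in delta cells (0.265 against 0.440) lay the same way, with overlapping intervals. Nrxn3 in alpha cells (0.617 against 0.421) and Nlgn1 in beta cells (0.805 against 0.681) lay the other way, also with overlapping intervals. Whether the response differs between genotypes could not be tested with 1 column for each. Outside the 3 deep cell types, Adgrl2 in endothelial cells stood at 11.7 CP10K in mutant CON and 7.37 in mutant Ex-4 (0.632 times, 0.495 to 0.803). It lay in the same direction in WT, at 23.7 in CON and 17.5 in Ex-4 (0.737 times, 0.580 to 0.931).

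The fourth comparison asked what FSK did in WT islets. No kept member was called in beta cells, where 0.723% of all kept genes were lower and 1.52% higher, and none in alpha cells, where 2.51% were called. In delta cells Adgrl2 was called higher, at 2.62 times WT CON (1.86 to 3.75) from 139 and 45 counts, 1 of 7 members against 4.79% of kept genes. At these low levels a ratio can be far from 1 without a call. Nlgn2 in beta cells stood at 0.310 times WT CON (0.238 to 0.401) with a difference of -0.54, and on linear CP10K with a pseudocount equal to the median of kept genes it was -0.99 and past the threshold. Adgrl1 in beta cells stood at 0.581 times (0.502 to 0.671). In delta cells the ratio intervals of Adgrl1, Nrxn2 and Adgrl3 lay below 1, with Adgrl1 going from 2.29 to 1.43 CP10K (a difference of -0.44). In alpha cells Nlgn2 lay the other way, at 1.60 times WT CON (1.15 to 2.22) with a difference of 0.47. In beta cells the ratio intervals of Nlgn1 and Adgrl3 lay below 1, at 0.828 times (0.717 to 0.955) and 0.910 times (0.847 to 0.977). Nlgn1 in alpha cells, at 0.945 times (0.806 to 1.11), stayed near WT CON.

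The fifth comparison set FSK against CON in Med14 S983A islets, and it shares its mutant CON columns with the baseline and Ex-4 comparisons of the mutant. In beta cells Nlgn2 and Adgrl1 were called lower, at 0.250 times (0.192 to 0.321) and 0.376 times (0.320 to 0.442), and Adgrl3 was called higher at 2.07 times (1.78 to 2.43). That is 2 of 5 lower and 1 of 5 higher, against 2.7% and 5.12% of all kept genes. In alpha cells Nlgn1 was called higher at 2.89 times (2.43 to 3.45), 1 of 7 against 4.02%. In delta cells 3 of 7 were called, against 7.91%: Adgrl2 higher at 9.03 times (5.3 to 16.5), Adgrl1 lower at 0.348 times (0.261 to 0.460) and Nlgn2 lower at 0.364 times (0.222 to 0.583), a call that ended with the length trend removed (-0.59 to -0.53). Adgrl2 was also higher with FSK in endothelial cells of the mutant, at 20.01 against 11.7 CP10K (1.71 times, 1.42 to 2.07), whereas in WT endothelial cells FSK and CON stood at 24.3 and 23.7 (1.03 times, 0.836 to 1.25). Adgrl3 in beta cells remained lower under FSK in the mutant than under FSK in WT, at 0.519 times (0.470 to 0.572).

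Several other measures moved with these differences, and their part in them was not tested. Gene length did. Of 193 kept beta genes of 500 kb or more, 35.8% were lower under Ex-4 in WT and 41.5% lower in untreated mutant islets, against 0.116% and 0.298% of genes under 50 kb. Under FSK in the mutant 35.2% of those long genes were higher, against 0.929% of genes under 50 kb. Nrxn3, Nlgn1 and Adgrl3 belong to the long class, and Nlgn2, Adgrl1 and Nlgn3 to the short one. With the trend on length removed, Adgrl3 in beta cells stayed lower at -0.98 in untreated mutant islets and -0.73 under Ex-4 in WT, but its FSK difference in the mutant went from 0.66 to 0.28 and Nlgn1 in untreated mutant beta cells went from -0.41 to 0.15.

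**Figure D4:**
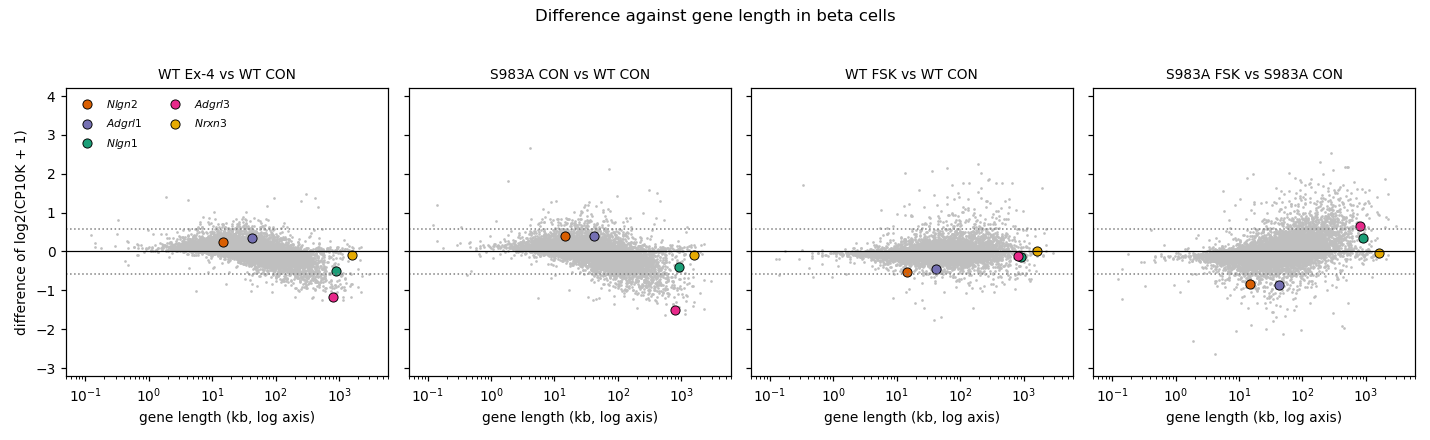
Difference of log2(CP10K + 1) in beta cells against gene length (log axis) for 9834 kept genes with a length (grey) and the 5 kept members (coloured); dotted lines mark 1.5-fold. Adgrl3 lies at -1.51 in the untreated mutant, where 41.5% of genes of 500 kb or more were lower, and Nlgn2 and Adgrl1 lie below 0 in both FSK panels.

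The share of counts from 14 ribosomal RNA linked and mitochondrial genes moved with the same conditions. In beta columns it was 3.45%, 2.81% and 9.20% in WT CON, FSK and Ex-4 and 11.9%, 2.75% and 14.8% in the mutant. Rescaling without these genes left all counts of called members the same, with Adgrl3 at -1.45 in the untreated mutant. Over all kept beta genes the same rescaling moved the split of calls from 95 higher and 220 lower to 143 and 171 under Ex-4 in WT, and from 149 and 390 to 234 and 293 in the untreated mutant. Under FSK in the mutant it moved the split from 517 higher and 273 lower to 435 and 388. Alpha cell markers summed to 7.34, 9.05 and 4.64 CP10K in WT beta columns and 4.64, 7.60 and 4.80 in mutant beta columns, against 118, 139 and 49.9 and then 48.6, 113 and 47.1 in alpha columns, with all 6 markers above 0 in beta columns. In beta columns these sums were highest in WT FSK, mutant FSK and WT CON, the 3 columns in which Nlgn1, a gene higher in alpha than in beta cells, was also highest, though in another order, whereas Nrxn3 in beta cells was lowest in mutant FSK. Beta cell markers summed to 33.4 in the WT CON alpha column and between 12.04 and 19.2 in the other 5, beside an Adgrl3 level of 1.91 in that column. In delta columns, beside the Adgrl2 values, the 5 endothelial markers summed to at most 0.317 CP10K, against 49.1 to 97.9 in endothelial columns. Muscle markers there summed to 0.248 in WT CON and 1.17 in WT FSK, and delta markers to 5.38 and 9.73.

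The partners of these families were read from 5 lists with 88 genes in the table, chosen with earlier results of these data known. In beta cells 65 were kept, of which 13 were lower and 1 higher under Ex-4 in WT, 15 lower and 1 higher in untreated mutant islets, and 0 in either direction under Ex-4 in the mutant. Of all kept beta genes, 2.18% and 3.86% were lower and 0.941% and 1.48% higher in the first pair of these comparisons. Under Ex-4 in the mutant 0.00991% of them were lower and 0.0396% higher, so few genes of any kind differed there. With FSK, 5 were higher and 5 lower in WT, where 1.52% and 0.723% of all kept genes were, and 16 higher and 1 lower in the mutant, where 5.12% and 2.7% were. Alpha cells gave 18 lower of 60 kept under Ex-4 in WT and 19 in the untreated mutant, against 4.02% and 5.44% of all kept genes. Delta cells gave 21 and 24 of 64, against 3.32% and 4.79%. Many of these are long genes too, and the lists were not compared within length classes.

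In the list of neurexin partners, which also holds the neurexin relative Cntnap2, 3 of 10 kept genes were lower in untreated mutant beta cells. Of all kept genes 3.86% were lower there, the share to set beside each count of lower genes in the untreated mutant below. The list median was -0.22, beside 0.00 for all kept genes. Tafa1, which binds neurexins in the secretory pathway, went from 5.998 to 1.25 CP10K, and Cntnap2, a neurexin relative of the axon, from 48.0 to 16.6. With FSK in WT the list had 1 higher gene, where 1.52% of all kept genes were higher. It was Clstn2, a calsyntenin, which went from 0.657 to 2.67 CP10K in WT and from 0.254 to 2.57 in the mutant. Among ligands of latrophilins, 4 of 9 kept genes were lower in the untreated mutant, with a median of -0.58. They included the teneurins Tenm4 (5.79 to 1.66 CP10K), Tenm2 (16.3 to 6.76) and Tenm3 (5.13 to 1.78). With FSK in WT beta cells 4 of 9 were lower, against 0.723% of all kept genes. Among them were Tenm4 at 2.45 and Tenm2 at 9.65, while their receptor Adgrl3 stood at 4.80 against 5.27.

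**Figure D5:**
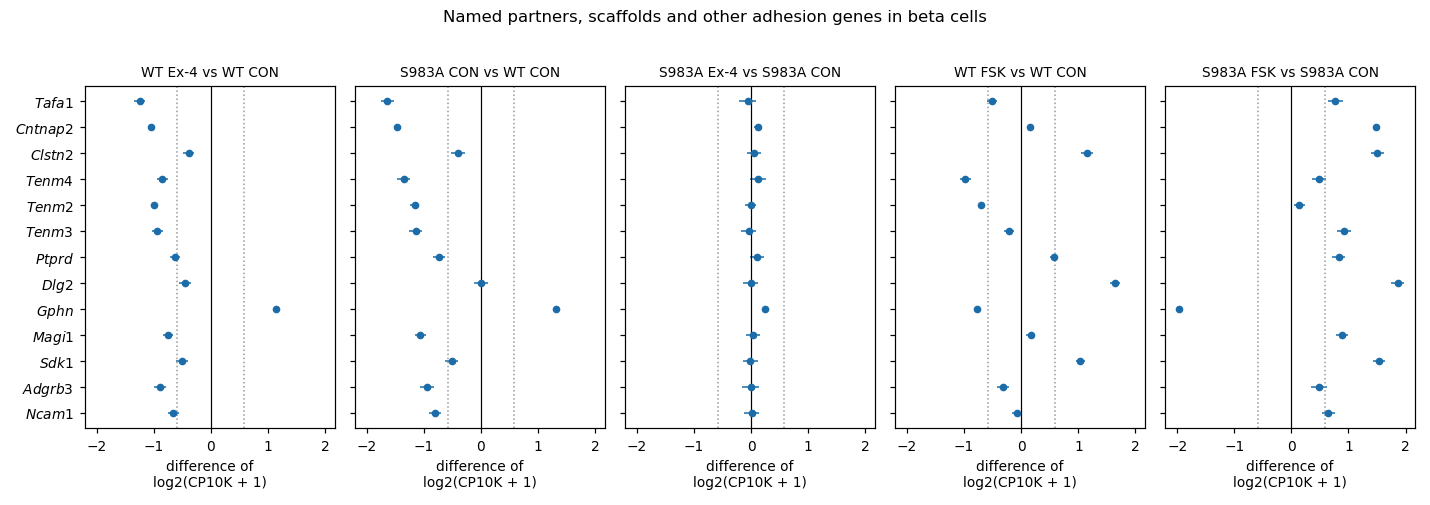
Difference of log2(CP10K + 1) in beta cells in 5 comparisons for 13 named partners, scaffolds and other adhesion genes; lines are approximate 95% intervals from counting error and dotted lines mark 1.5-fold. Gphn lies at 1.31 in the untreated mutant and -1.97 under FSK in the mutant, and Dlg2 at 1.64 and 1.86 under FSK in WT and mutant.

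Of the LAR type receptor phosphatases and their ligands, 1 of 14 kept genes was lower in the untreated mutant, Ptprd (5.58 to 2.94 CP10K), with a list median of -0.03. Of the intracellular scaffolds, 4 of 22 were lower and 1 higher in the untreated mutant, where 1.48% of all kept genes were higher. The list median was -0.01. Gphn, which encodes gephyrin, the scaffold of inhibitory synapses that binds Nlgn2, went from 49.9 to 125 CP10K in the untreated mutant and to 111 under Ex-4 in WT, and with FSK to 28.7 in WT and 31.1 in the mutant. Over the 6 beta columns Gphn had nearly the order of the ribosomal RNA linked and mitochondrial share given above, with its highest value, 148, in mutant Ex-4 where that share was 14.8%, and the part of this in the Gphn differences was not tested. Dlg2, a PSD-95 relative that binds neuroligin tails, went from 2.04 to 8.49 with FSK in WT and from 2.04 to 10.0 in the mutant. Magi1, another scaffold, went from 7.14 to 2.91 in the untreated mutant. Of 10 other synaptic adhesion genes kept, 3 were lower in the untreated mutant (median -0.41), including Adgrb3 (3.15 to 1.15) and Ncam1 (5.11 to 2.49), and Sdk1 was higher with FSK, at 8.39 against 3.58 in WT and 8.31 against 2.22 in the mutant.

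The genes whose values followed each member most closely were taken from 8555 genes kept in beta, alpha and delta cells, by Pearson's r over the 18 columns, which share libraries and cell types and are not independent. For Nlgn1 they were Atxn7l1 (r = 0.98), Dapk1 (r = 0.97) and Ston2 (r = 0.96), and for Adgrl3 Hivep3 (r = 0.96), Elapor2 (r = 0.96) and Thsd4 (r = 0.95). For Nlgn2 they included Slc4a2 (r = 0.97) and Sptbn1 (r = 0.95), for Adgrl1 they were Ppip5k1 (r = 0.94), Zmym5 and Cplx2, and for Adgrl2 Fbxl7 (r = 0.97), Atp10a and Fgf9. For Nrxn3 they were Pdzrn3 (r = 0.96), Arhgap23 and Grb10, for Nrxn2 Cers4 (r = 0.92), Gm609 and Smarca2, and for the nearly absent Nlgn3 Grk4 (r = 0.83), Unc5d and Pde3a. The Nlgn3 values include the Ex-4 columns, where the gene may be missing, and alpha columns that were all 0. Among the members themselves the highest value was 0.66, between Nlgn2 and Nrxn3, and the lowest was -0.74, between Adgrl3 and Nrxn2.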

How the data were processed

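Single-nucleus RNA libraries were made by combinatorial barcoding (Parse Evercode), with round 1 wells marking the 6 conditions. Per the submitters' processing notes and the study's methods, reads were processed with split-pipe 1.4.0 against mm39 and analysed with Seurat 5.3.0, and nuclei beyond the 15th percentile at each end or above 1% mitochondrial reads were removed. The gene annotation release and whether raw or corrected counts were averaged are not given in the sources used here. The authors deposited 1 table of 17362 genes and 54 columns (6 conditions by 9 cell types) in natural log units, ln(1 + counts per 10000), pooled over the nuclei of a column. Each GEO sample is a sublibrary holding all conditions, so groups were taken from the column names.

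Values were converted to CP10K, and whole counts were recovered from the steps of each column (100% within 0.001 of a whole number). Genes were kept above the 40th percentile of the mean CP10K in a cell type (0.0603 in beta, 0.0830 in alpha and 0.0888 in delta cells). Differences of log2(CP10K + 1) were called past 1.5-fold. With 1 pooled value per condition and cell type no test across replicates was possible, and no p-value is given. Intervals (exact Poisson for levels, exact Clopper-Pearson conditional on the total for ratios, 95%) cover counting error only, which is smallest in the deep beta columns. A count of 0 was given a limit of 3 counts except where a gene was 0 throughout a condition. The difference and call rule, but not the comparison script itself, was tried on simulated Poisson counts of beta cells. That trial used genes above 1 CP10K, a level that several members do not reach in beta cells.

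The members and gene lists were chosen with earlier results of these data known. Partners were named where past 1.5-fold in beta cells in the untreated mutant or under FSK in WT, at most 3 per list by largest difference. Genes of similar pattern were the 3 with the highest Pearson's r for each member, of which 1 is not reported here. Alternatives were other pseudocounts on linear CP10K, filters, thresholds, centring, rescaling without mitochondrial and ribosomal RNA linked genes, and subtraction of a lowess fit (span 0.3) of the difference on length. Promoters came from RefSeq (GRCm38.p6) and coordinates from GENCODE M39 (GRCm39) by exact match. The software was matplotlib 3.10.9, scipy 1.17.1, pandas 2.3.3, numpy 2.4.6 and statsmodels 0.14.6 under Python 3.11.15.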

Additional observations from a re-analysis of the deposited data

Results flagged for a closer look

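Nlgn2 lay on opposite sides of WT CON under FSK in 2 cell types, with a log2 difference of -0.54 in beta cells (0.823 to 0.255 CP10K) and 0.47 in alpha cells (1.81 to 2.90 CP10K). Each rests on 1 pooled column per condition, so the difference between the cell types was not tested. In Med14 S983A islets the 2 cell types lay on the same side, at -0.83 in beta cells and -0.17 in alpha cells.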

How the results depend on the processing

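Of 20 counts of called members, all 20 were unchanged or within 1.5 times without a filter, with a filter at the 75th percentile, with the median difference set to 0 and after rescaling. With linear CP10K plus 0.01 times the median, 13 counts moved. In beta cells 2 members were lower under Ex-4 in WT, 2 lower and 2 higher in the untreated mutant, 2 lower under FSK in WT and 2 higher under FSK in the mutant. In alpha cells the counts were 5 in the untreated mutant, 1 under FSK in WT and 5 under FSK in the mutant. In delta cells they were 5 under Ex-4 in WT, 3 under Ex-4 in the mutant, 4 in the untreated mutant, and 6 under FSK in each genotype. With a pseudocount of 1 times the median, 7 moved, to 2 lower under Ex-4 in WT, 2 lower and 1 higher in the untreated mutant and 2 lower under FSK in WT in beta cells, 2 under FSK in the mutant in alpha cells, and 1 under Ex-4 in the mutant and 2 under FSK in WT in delta cells. At 2-fold, 6 moved, to 0 lower and 0 higher under FSK in the mutant in beta cells, and in delta cells to 1 under Ex-4 in WT, 1 in the untreated mutant, 0 under FSK in WT and 1 under FSK in the mutant. With the length trend removed, 3 moved, to 0 higher under FSK in the mutant in beta cells, 1 in the untreated mutant in alpha cells and 1 under Ex-4 in WT in delta cells. No called difference changed sign. The linear scales use smaller pseudocounts and so raise differences of low genes, and the cause of the other shifts was not tested.

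Among all kept genes, counts of calls also moved by over 1.5 times on the linear scales. In beta cells with the pseudocount of 0.01 times the median they were 2723 higher and 1238 lower under Ex-4 in WT, 2537 and 2224 in the untreated mutant, 699 and 3329 under FSK in WT and 2211 and 3209 under FSK in the mutant. With 1 times the median they were 498 and 485, 567 and 933, 320 and 301, and 1102 and 930 in the same order. With the length trend removed they were 94 and 60 under Ex-4 in WT, 204 and 136 in the untreated mutant and 333 and 279 under FSK in the mutant. Rescaling moved the split in alpha cells to 263 higher and 309 lower from 162 and 381 under Ex-4 in WT, to 279 and 431 from 184 and 516 in the untreated mutant and to 250 and 147 from 297 and 84 under FSK in the mutant. In delta cells it moved to 217 and 247 from 161 and 307, to 315 and 377 from 210 and 443 and to 422 and 325 from 506 and 226. Setting the median to 0 moved alpha cells under FSK in WT to 147 and 80 from 127 and 111.

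Nrxn3 in beta cells, near 0 at -0.09 both under Ex-4 in WT and in the untreated mutant, went to 0.47 and 0.58 with the length trend removed. In delta cells the count in the untreated mutant stayed at 2 with other members, since Adgrl2 went from -0.83 to -0.584 and Nrxn3 from 0.02 to 0.75. No paired analysis was possible because each condition and cell type has 1 pooled column and the columns carry no replicate number. For the same reason no replicate could be left out. Depth limits Nrxn2 and Adgrl2 in beta cells (0 to 10 counts a column), Nlgn3 everywhere and most members outside beta, alpha and delta cells.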
